A study of Homo sapiens with 12 samples.

Results

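The genes described here build and load the MHC class I complex, and they were chosen by name: the heavy chains HLA-B, HLA-C, HLA-E, HLA-F and HLA-G, the light chain B2M, the peptide transporter subunits TAP1 and TAP2, and the loading factor TAPBP. No cut-off on measured values set the list, but earlier results of these data were known when it was chosen. These 9 of the 18852 genes named on the array had 15 probes among the 48803 probes of the array, and 13 of the 15, covering 8 of the 9 genes, were bright enough to test. Nearly every nucleated cell shows peptides from its own proteins on class I molecules, which CD8 T cells inspect. Peptides cut by the proteasome are pumped into the endoplasmic reticulum by the TAP1-TAP2 transporter, and TAPBP (tapasin) holds the empty heavy chain with B2M beside that pump until a peptide fits. Interferons raise most genes of this pathway through interferon response elements in their promoters, and many tumours lower it.

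RNA was measured on Illumina bead arrays in SKOV3ip, derived from SKOV3, an established human ovarian cancer cell line; the source labels say SKOV3. The 3 groups of 4 arrays each were untransfected cells (SKOV3ip), a scrambled siRNA (CTLsiRNA, here control siRNA) and an siRNA that targets EZH2 (EZH2siRNA). EZH2 is the histone methyltransferase of Polycomb repressive complex 2. All 12 arrays are of this 1 line, and the labels used here give neither siRNA sequences, doses and times nor whether the 4 arrays of a group were separate cultures. The p-values therefore reflect spread among arrays alone, and that spread may be technical.

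The targeted gene was lowest in the group labelled EZH2 siRNA. The EZH2 level, in log2 units of background-corrected and normalised signal, was 6.68 ± 0.24 there (SD, n = 4), 7.56 ± 0.17 with control siRNA and 7.98 ± 0.26 without transfection. EZH2 fell by 0.88 with EZH2 siRNA against control siRNA (limma, adjusted p = 0.00145). The arrays differed in brightness: the mean raw signal lay between 156.7 and 410 intensity units in untransfected cells, between 291 and 386 with control siRNA and between 186 and 284 with EZH2 siRNA. In all, 3 of the 12 arrays were under 250 units, namely array 4 of the untransfected cells and arrays 1 and 4 of the EZH2 siRNA group. Normalisation raises dim arrays, so raw and normalised values are given side by side where they part. All 8 epithelial marker genes were tested. PAX8, a transcription factor of ovarian carcinoma, rose by 0.66 with control siRNA (adjusted p = 0.00302) and by 0.53 with EZH2 siRNA over untransfected cells (adjusted p = 0.00882). ERBB2, a receptor tyrosine kinase, rose by 0.50 in the latter comparison (adjusted p = 0.00719, and 0.174 without the 3 dim arrays). Of 7 leukocyte markers with a probe, PTPRC, CD3E, CD14 and NKG7 were above background on 0 arrays, and CD68, a lysosomal protein used as a macrophage marker, was above background on all 12, while LYZ was above it on 6 and CD79A on 2. The raw signal of the 7 leukocyte markers, less each array's background and summed, ran from 166 to 1137 units in untransfected cells. It ran from 1106 to 1822 with control siRNA and from 695 to 1489 with EZH2 siRNA. Most of this sum was CD68, whose mean raw signal, background included, was 735, 1332 and 1036 units in these groups. That of LYZ was 71.5, 73.4 and 64.0. The epithelial sums ran from 4136 to 17345, from 11719 to 16820 and from 7397 to 12254. Endothelial and fibroblast sums were at most 83.8 and 60.8 units. CD68 itself rose by 0.78 with control siRNA (adjusted p = 0.00127) and by 1.05 with EZH2 siRNA over untransfected cells (adjusted p = 3.06e-05), and LYZ differed by -0.03 with control siRNA (adjusted p = 0.937). The part of these marker genes in the results was not tested.

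The promoters of the pathway genes are shown first because 5 of the 11 windows that the RefSeq table (GRCh38.p14, 250 bases before to 50 bases after each start) gives for 8 member genes hold the core letters of the interferon-stimulated response element, ISRE, the sequence bound by interferon regulatory factors. The letters searched, on both strands, were GAAANNGAA, which 8.11% of the 35116 promoter windows in the table hold. The 5 windows belong to 5 genes, and HLA-G has 3 windows and TAP1 has 2. The sequences below run 5′ to 3′ on the gene's own strand, with motif matches in capitals.
TAP1, chr6:32853793-32853867, minus strand: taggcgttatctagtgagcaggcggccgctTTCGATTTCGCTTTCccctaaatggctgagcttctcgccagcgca
TAP2, chr6:32838759-32838827, minus strand: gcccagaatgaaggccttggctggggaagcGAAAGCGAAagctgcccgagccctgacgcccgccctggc
B2M, chr15:44711343-44711417, plus strand: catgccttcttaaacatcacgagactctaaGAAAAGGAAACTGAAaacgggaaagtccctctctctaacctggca
HLA-F, chr6:29723249-29723317, plus strand: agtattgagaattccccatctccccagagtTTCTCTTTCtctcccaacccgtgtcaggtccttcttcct
TAPBP, chr6:33314054-33314163, minus strand: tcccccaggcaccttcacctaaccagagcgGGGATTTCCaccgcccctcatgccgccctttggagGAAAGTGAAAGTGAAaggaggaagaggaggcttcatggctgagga
HLA-B, chr6:31357317-31357385, minus strand: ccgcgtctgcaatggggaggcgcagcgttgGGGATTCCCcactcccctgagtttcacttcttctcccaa

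In TAP1, B2M and TAPBP the capital run of the ISRE letters is a pair of overlapping matches. The matches lie on the opposite strand in TAP1 and HLA-F. The first capital run of TAPBP and that of HLA-B match a second set of letters, GGGANTNCC, the type bound by NF-kB, which 2 of the 11 member windows and 4.35% of all windows hold. CCAAT, the letters of the Y box bound by NF-Y, was found in 6 of the 11 member windows and in 34.6% of all windows. HLA-E has no entry in this table. A match is a description of letters and not a binding site, and a gene without one says only that these letters are not in this window.

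TAP1, the first subunit of the peptide transporter (chromosome 6, 32845209 to 32853704, GRCh38.p14), had the largest difference of the 8 tested genes in both comparisons with untransfected cells. Its level was 9.41, 9.54, 9.63 and 9.29 on the 4 untransfected arrays. With control siRNA it was 10.30, 10.37, 10.38 and 10.57, and with EZH2 siRNA it was 10.50, 10.18, 10.78 and 10.27. After normalisation every array of both transfected groups lay above every untransfected array, and the transfected groups overlapped each other. In raw units TAP1 read 283 to 1158 in untransfected cells, 1324 to 2385 with control siRNA and 785 to 1885 with EZH2 siRNA. Raw signal thus separated control siRNA from untransfected cells, but EZH2 siRNA overlapped them, with its dim arrays 1 and 4 at 785 and 813. TAP1 rose 1.92-fold with control siRNA (95% confidence interval 1.58 to 2.32, log2 difference 0.94, SE 0.13, limma adjusted p = 0.000116). The exact two-sided permutation p was 0.0286, the smallest that 4 arrays against 4 allow. With EZH2 siRNA it rose 1.95-fold over untransfected cells (log2 difference 0.97, adjusted p = 5.18e-05). Between the siRNAs the log2 difference was 0.03 with a 95% interval from -0.25 to 0.30 (adjusted p = 0.943). The rise with control siRNA was called under each of the 26 alternatives, between 0.88 and 1.13 on the log2 scale. With a 75th percentile shift in place of quantile normalisation the difference of EZH2 siRNA from untransfected cells was 0.83 (adjusted p = 0.124).

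TAP2, the second subunit of the transporter (chromosome 6, 32821831 to 32838739), had 2 probes whose differences ran in opposite directions between the siRNAs. Its brighter probe, annotated to NM_000544, gave levels of 8.02, 8.02, 8.38 and 8.23 in untransfected cells. With control siRNA the levels were 8.56, 8.65, 8.68 and 8.56, and with EZH2 siRNA they were 7.94, 8.18, 8.16 and 8.25. The control siRNA arrays lay above all arrays of both other groups, and those other groups overlapped. On this probe TAP2 rose 1.36-fold with control siRNA (log2 difference 0.45, SE 0.11, limma adjusted p = 0.0224). The EZH2 siRNA arrays were 1.39-fold lower than the control arrays (log2 difference -0.48, SE 0.11, adjusted p = 0.0229). EZH2 siRNA and untransfected cells differed by -0.03 (adjusted p = 0.901). The rise was not called without untransfected array 1 or 2 or control array 2 or 3 (adjusted p = 0.0592 to 0.0739), and the fall was not called without control array 2, 3 or 4 or EZH2 siRNA array 1 (adjusted p = 0.0511 to 0.0981). Without the 3 dim arrays the fall was -0.46 and not called (adjusted p = 0.162). As the mean of both probes the siRNAs differed by 0.04. In raw units the brighter probe read 369 to 588 with control siRNA, 137 to 274 with EZH2 siRNA and 149 to 420 in untransfected cells. The EZH2 siRNA arrays lay below the control arrays, which overlapped the untransfected ones. Every EZH2 siRNA array was dimmer overall than every control array, so this raw order cannot separate a fall from array brightness.

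The other TAP2 probe, annotated to NM_018833, gave levels of 6.41, 6.72, 6.98 and 7.29 in untransfected cells. They were 7.41, 7.0, 7.07 and 6.98 with control siRNA and 8.05, 7.45, 7.31 and 7.86 with EZH2 siRNA. The EZH2 siRNA arrays lay above all untransfected arrays and overlapped the control arrays, and their highest values were those of the dim arrays 1 and 4. This probe was 1.76-fold higher with EZH2 siRNA than in untransfected cells (log2 difference 0.81, limma adjusted p = 0.0043). Against control siRNA its difference was 0.55 (adjusted p = 0.0923), and that of control siRNA from untransfected cells was 0.26 (adjusted p = 0.487). The former was called without EZH2 siRNA array 3 (0.67, adjusted p = 0.0354). In raw units it read 87.5 to 120 in untransfected cells, 135 to 164 with control siRNA and 142 to 157 with EZH2 siRNA, so raw signal separated untransfected from transfected cells but not the siRNAs.

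The gap between the TAP2 probes within each array averaged 0.47 log2 units with EZH2 siRNA, 1.5 with control siRNA and 1.31 without transfection. This comparison was chosen after the values were seen and is given as a description. The gap was smaller by 1.03 with EZH2 siRNA than with control siRNA and smaller by 0.84 than in untransfected cells. Without the 3 dim arrays, which leaves 2 EZH2 siRNA arrays, these differences were -0.75 and -0.72. Which transcripts each probe detects in these cells was not tested.

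**Figure D1:**
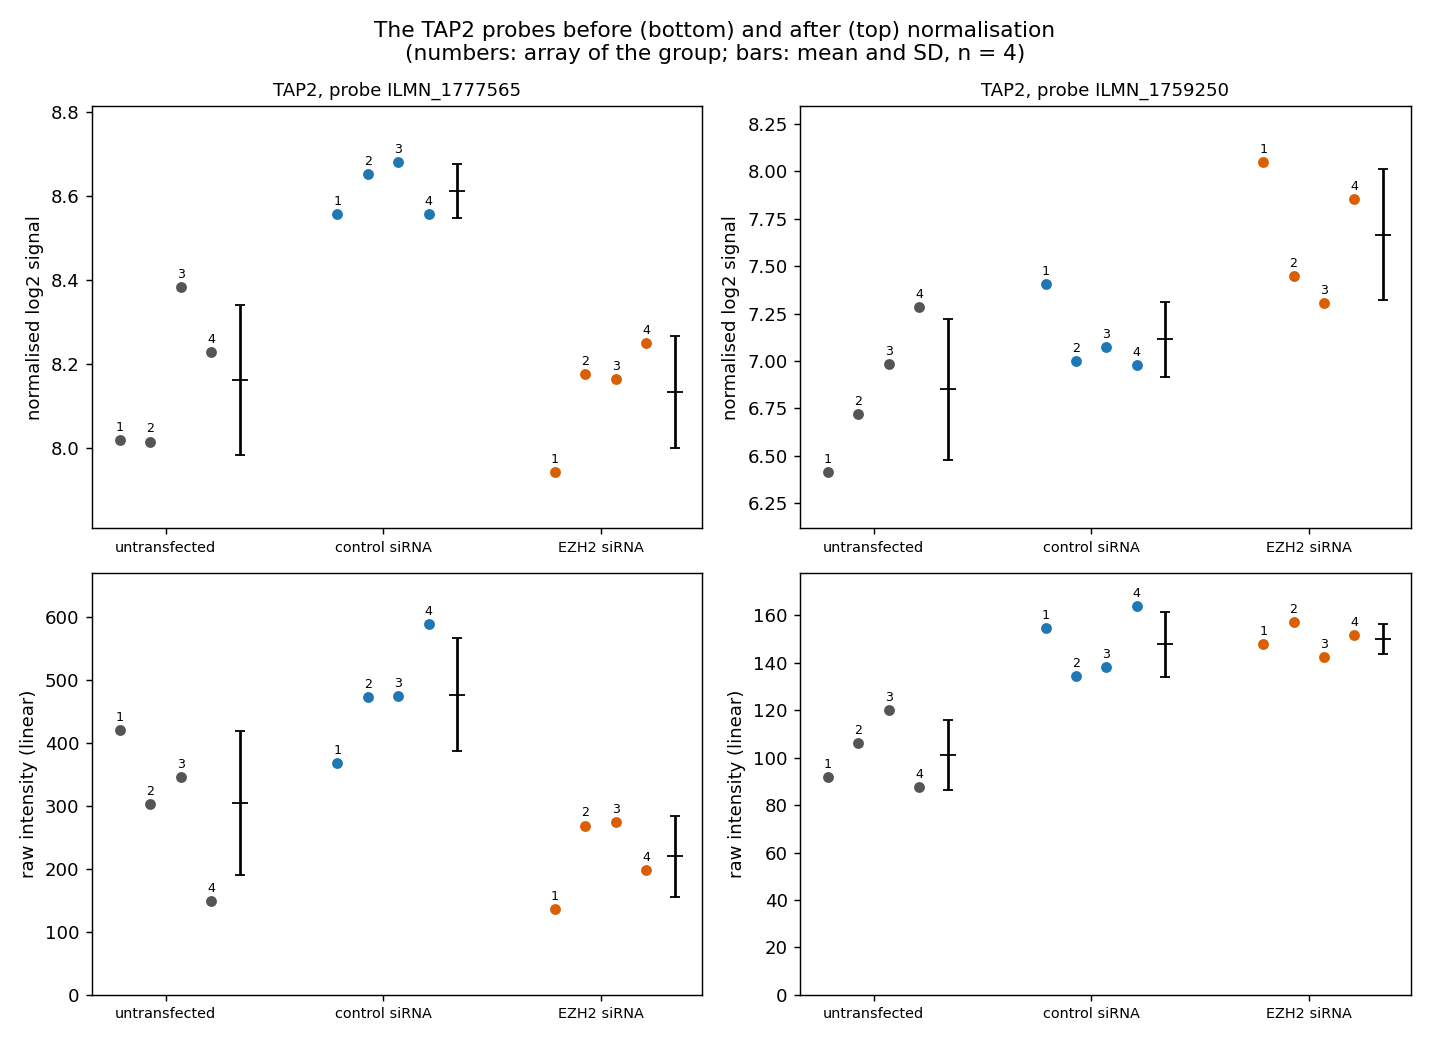
Signal of the brighter (left) and dimmer (right) TAP2 probe on each of 12 arrays, as normalised log2 signal (top) and raw intensity (bottom); numbers name the array, bars give mean and SD, n = 4 per group. The brighter probe sits at 8.56 to 8.68 with control siRNA and at 7.94 to 8.25 with EZH2 siRNA, while the dimmer probe has overlapping siRNA groups, at 6.98 to 7.41 with control siRNA and 7.31 to 8.05 with EZH2 siRNA after normalisation, and at 135 to 164 and 142 to 157 raw units.

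TAPBP, the tapasin gene (chromosome 6, 33299694 to 33314078), had 3 tested probes and no call on any of them. Its brightest probe, annotated to NM_003190, gave levels of 9.89, 9.51, 10.70 and 10.36 in untransfected cells. With control siRNA it gave 10.41, 10.53, 10.48 and 10.37, and with EZH2 siRNA 10.06, 9.15, 9.35 and 10.44. The control siRNA arrays lay close together, the other groups were wide, and EZH2 siRNA array 4 overlapped the control arrays. The difference of EZH2 siRNA from control siRNA was -0.70 (SE 0.24, limma adjusted p = 0.115, exact permutation p = 0.0857). In raw units the EZH2 siRNA arrays read 553 to 913 and the control arrays 1422 to 2130, with no overlap. Every EZH2 siRNA array was dimmer than every control array (mean raw signal 186 to 284 against 291 to 386). The raw order of these groups therefore cannot separate a fall of this gene from array brightness. Without the 3 dim arrays the difference was -1.21 (adjusted p = 0.0135), with array brightness as a covariate -0.99 (adjusted p = 0.0222), and without EZH2 siRNA array 4 alone -0.93 (adjusted p = 0.0385). These were the 3 of 26 alternatives that gave a call. The other 23 gave none, with differences as small as -0.24 and limma adjusted p up to 0.310. The probe annotated to NM_172208 differed by -0.08 and that annotated to NM_172209 by 0.07 in the same comparison (adjusted p = 0.804 and 0.816).

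HLA-E, a non-classical heavy chain that presents leader peptides of other class I chains to NKG2A receptors of natural killer cells, was the heavy chain whose gene was called. Its level was 9.08, 9.17, 9.09 and 8.97 in untransfected cells. It was 9.57, 9.26, 9.17 and 9.47 with control siRNA and 9.86, 9.65, 9.35 and 9.45 with EZH2 siRNA. All 8 transfected arrays lay above the untransfected ones, narrowly for control array 3. HLA-E rose 1.41-fold with EZH2 siRNA over untransfected cells (log2 difference 0.50, 95% interval 0.23 to 0.76, limma adjusted p = 0.0112). With control siRNA the difference was 0.29 (SE 0.13, adjusted p = 0.209, exact permutation p = 0.0286), and between the siRNAs it was 0.21 (adjusted p = 0.414). Raw signal overlapped between all 3 groups, at 236 to 908, 679 to 1138 and 455 to 787 units. Without the 3 dim arrays the difference of EZH2 siRNA from untransfected cells was 0.39 (adjusted p = 0.152), and with the 75th percentile shift 0.34 (adjusted p = 0.423).

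HLA-F, a non-classical heavy chain found partly without peptide, was read by 2 tested probes. On the brighter probe the arrays read 9.75, 9.36, 9.80 and 9.55 in untransfected cells, 10.05, 9.92, 9.68 and 9.84 with control siRNA and 10.17, 9.94, 9.71 and 10.14 with EZH2 siRNA. The groups overlapped, and none of the differences was called: 0.25 with control siRNA, 0.12 between the siRNAs and 0.37 for EZH2 siRNA over untransfected cells (adjusted p = 0.317, 0.701 and 0.0606). The last was 0.43 without untransfected array 3 (adjusted p = 0.0464) and 0.46 without EZH2 siRNA array 3 (adjusted p = 0.0225). The second probe read 7.28, 8.01, 7.97 and 7.98 in untransfected cells, 8.37, 8.37, 8.36 and 8.19 with control siRNA and 9.12, 8.25, 8.31 and 8.89 with EZH2 siRNA. Both transfected groups lay above the untransfected arrays on this probe, with the 2 dim EZH2 siRNA arrays highest. It was called 1.78-fold higher with EZH2 siRNA than in untransfected cells (log2 difference 0.83, limma adjusted p = 0.00453), and without the 3 dim arrays the difference was 0.55 (adjusted p = 0.109). In raw units the EZH2 siRNA arrays read 283 to 309 on it and the control siRNA arrays 320 to 447, the reverse of the normalised order.

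HLA-G, a non-classical heavy chain known from the placenta as a ligand of inhibitory receptors, read 8.77, 8.48, 8.39 and 7.76 in untransfected cells. It read 8.85, 8.85, 8.51 and 9.14 with control siRNA and 8.96, 9.02, 8.58 and 8.94 with EZH2 siRNA. Array 1 of the untransfected cells lay within the range of the transfected arrays and array 4, a dim one, lay far below. Its difference was 0.49 with control siRNA (limma adjusted p = 0.123), 0.04 between the siRNAs (adjusted p = 0.941) and 0.52 for EZH2 siRNA over untransfected cells (adjusted p = 0.0501). The last was called under 8 of the 26 alternatives, among them without untransfected array 1 (0.66, adjusted p = 0.0184) and without EZH2 siRNA array 3 (0.62, adjusted p = 0.0294). Without untransfected array 1 the difference with control siRNA was also called (0.62, adjusted p = 0.0435). Class I heavy chains share long stretches of sequence, so a probe for 1 of them may also read transcripts of another, and probe sequences were not used here. The pseudogene HLA-H, which resembles them, gave 0.25, 0.11 and 0.36 in the 3 comparisons on its brighter probe (adjusted p = 0.329, 0.738 and 0.0744).

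HLA-B, the classical heavy chain with a tested probe (chromosome 6, 31353875 to 31357179), read 10.39, 10.29, 10.87 and 10.95 in untransfected cells. It read 10.995, 11.05, 10.89 and 10.65 with control siRNA and 11.01, 10.52, 10.58 and 11.26 with EZH2 siRNA. The 3 groups overlapped. Its differences were 0.27 (limma adjusted p = 0.440), -0.05 (0.912) and 0.22 (0.438), with a 95% interval between the siRNAs of -0.41 to 0.31. HLA-C, also classical, had 2 probes, of which 1 was above background on 3 of the 12 arrays and the other on 0. Neither was tested; their group means lay between 5.82 and 6.24.

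B2M, the light chain that every class I heavy chain shares (chromosome 15, 44711517 to 44718145), lay at the 99.0th percentile of all probes in untransfected cells. It read 12.31, 11.83, 12.34 and 12.41 there, 12.62, 12.69, 12.39 and 12.22 with control siRNA and 12.23, 12.22, 12.61 and 12.43 with EZH2 siRNA. The groups overlapped, and array 2 of the untransfected cells was lowest. The differences were 0.26 (limma adjusted p = 0.360), -0.11 (0.754) and 0.15 (0.544) on this probe and 0.18, 0.09 and 0.27 on the other, none called. Its raw signal, at most 8173 units, stayed below the brightest probe of each array (22266 units or more).

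**Figure D2:**
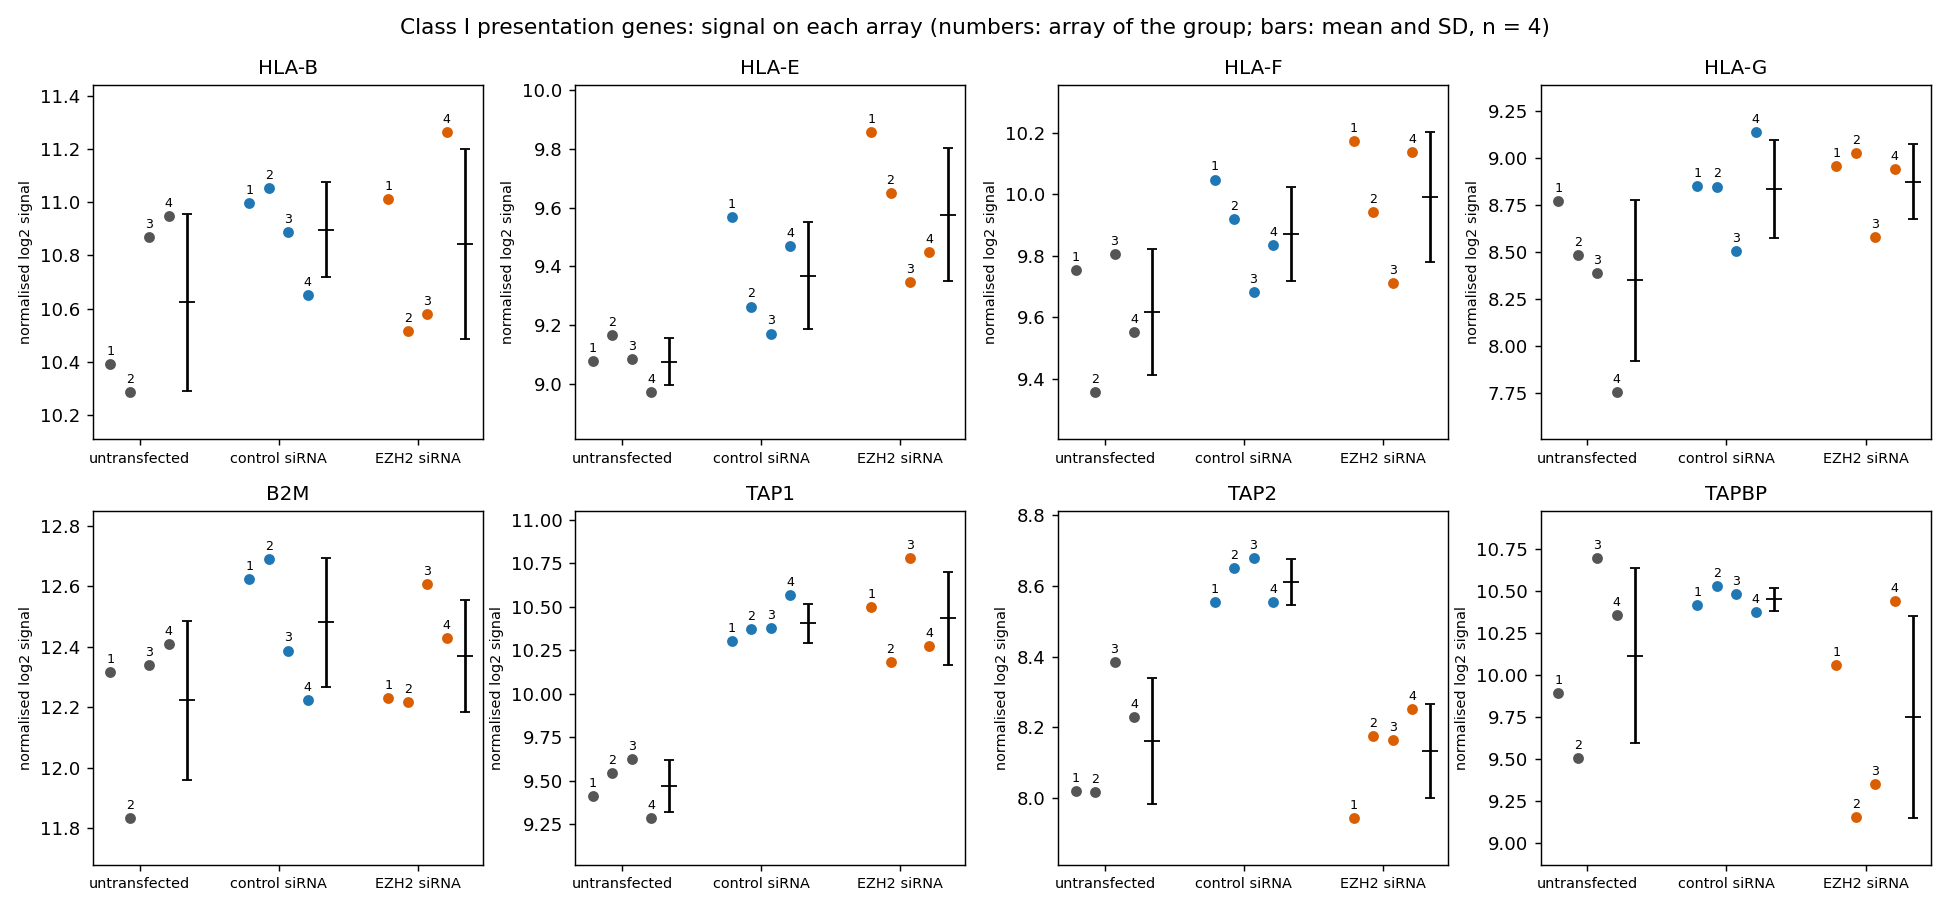
Normalised log2 signal of the brightest tested probe of each of 8 class I genes on each array; numbers name the array of the group, bars give mean and SD, n = 4 per group, and each panel has its own axis. TAP1 lies at 9.29 to 9.63 in untransfected cells and at 10.18 or more on all transfected arrays, and TAP2 is highest with control siRNA.

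Counted together on the brightest probe, 2 of the 8 tested genes were called higher with control siRNA than in untransfected cells (TAP1 and TAP2) and 0 lower. Across all 11289 genes with a tested probe 4.75% were called higher and 2.86% lower. At an unadjusted p under 0.05 in limma 4 of the 8 passed, against 21.5% of all genes. Between the siRNAs 2 passed, against 20.1%, and for EZH2 siRNA over untransfected cells 4 passed, against 32.8%. For control siRNA over untransfected cells the median difference of the 8 genes was 0.31 log2 units (range 0.25 to 0.94), and that of all genes was 0.02. In 3 of the 8, TAP1, TAP2 and HLA-E, all control arrays lay above all untransfected arrays, against 9.36% of all genes.

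Between EZH2 siRNA and control siRNA 1 of the 8 genes was called lower (TAP2, brighter probe) and 0 higher, and of all genes 2.73% were called lower and 2.02% higher. The TAP2 arrays of these groups did not overlap, with EZH2 siRNA lower, as in 6.04% of all genes. The median was -0.01 (range -0.70 to 0.21), against -0.02 for all genes. Against untransfected cells, EZH2 siRNA had 2 of the 8 called higher (HLA-E and TAP1) and 0 lower, where 9.87% of all genes were called higher and 8.27% lower; in both genes the arrays did not overlap, as in 9.93% of all genes. Their median was 0.30 (range -0.36 to 0.97), against -0.00 for all genes. Per probe, 4 of 13 were called higher in that comparison, against 8.37% of all tested probes, the added 2 being the dimmer probes of HLA-F and TAP2. The comparisons share groups of arrays, so their values are set side by side and no likeness between them is read.

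**Figure D3:**
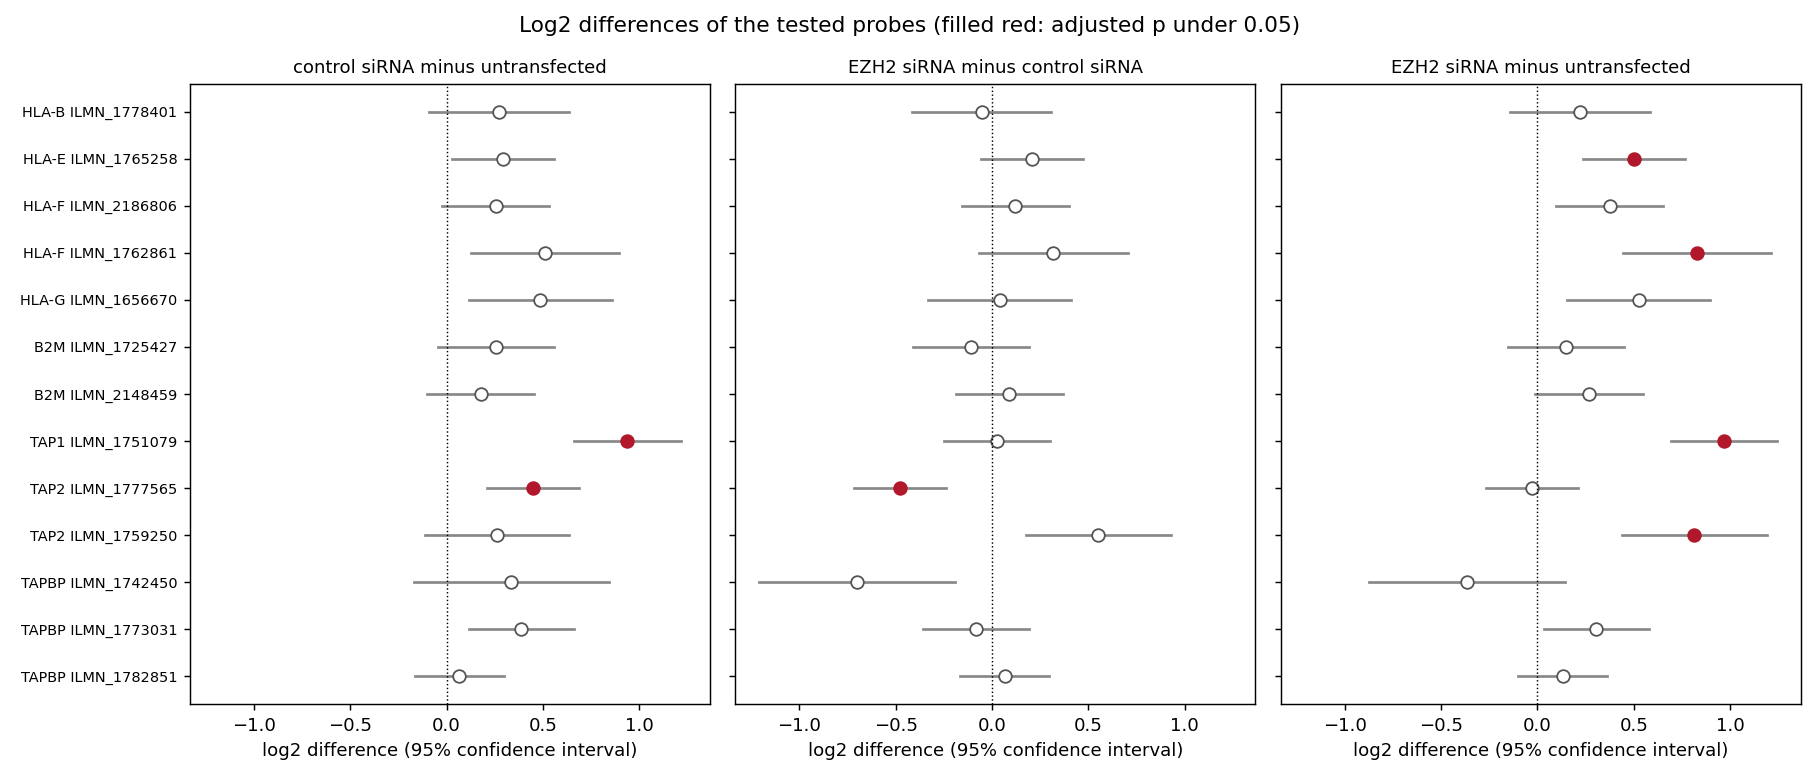
Log2 differences of the 13 tested probes in the 3 comparisons, with 95% confidence intervals from limma; filled points have an adjusted p under 0.05. TAP1 differs by 0.94 and 0.97 from untransfected cells and by 0.03 between the siRNAs, and the TAP2 probes lie on opposite sides of 0 between the siRNAs.

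The peptide supply ahead of the transporter was read from the immunoproteasome subunits PSMB8, PSMB9 and PSMB10 and the PA28 activator subunits PSME1 and PSME2. Of these 5 genes, 3 rose with control siRNA, 2 rose with EZH2 siRNA over control siRNA and 4 rose with EZH2 siRNA over untransfected cells, with 0 lower in each. Of all genes 4.75%, 2.02% and 9.87% were called higher in these comparisons. The median differences of the 5 were 0.49, 0.44 and 0.70. PSMB9, whose gene lies head to head with TAP1, was 8.46 ± 0.27 with EZH2 siRNA (SD, n = 4), 7.81 ± 0.02 with control siRNA and 7.16 ± 0.06 without transfection. It rose by 0.65 in the first step (limma adjusted p = 0.00222) and by 0.65 in the second (adjusted p = 0.00482). The second difference was 0.51 without the 3 dim arrays (adjusted p = 0.118), 0.36 with the 75th percentile shift (adjusted p = 0.197) and 0.28 as the mean over its probes (adjusted p = 0.213).

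PSMB10 rose by 0.53 with EZH2 siRNA over control siRNA (adjusted p = 0.0388), a call lost without control array 2, 3 or 4 and without EZH2 siRNA array 1, 2 or 4 (adjusted p up to 0.163) and without the 3 dim arrays (0.44, adjusted p = 0.290). Over untransfected cells it was 0.58 without the dim arrays (adjusted p = 0.0650), which also ended that call. PSMB8 rose by 0.53 with control siRNA (adjusted p = 0.0168, 0.0754 without control array 1, 0.0622 without untransfected array 4 and 0.0643 without the dim arrays) and differed by 0.44 between the siRNAs (adjusted p = 0.0636). PSME2 rose by 0.49 with control siRNA (adjusted p = 0.0145, and 0.0675 without control array 1). Of their constitutive counterparts PSMB5, PSMB6 and PSMB7, PSMB7 rose by 0.48 with EZH2 siRNA over control siRNA (adjusted p = 0.0147, 0.0693 without control array 3 and 0.0889 without the dim arrays). None of the 3 was called with control siRNA. Mean raw signal between the siRNAs ran the other way for PSMB10 (2293 units with EZH2 siRNA, 2406 with control siRNA) and PSMB7 (6481 and 6612). For PSMB9 it was 269 and 261 units. Every EZH2 siRNA array was dimmer overall than every control array. The ISRE letters are also in the promoter windows of PSMB10 and PSME2 and in 1 of the 2 windows of PSMB8, and not in that of PSMB9.

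Of 13 tested regulators of class I transcription, 3 rose with control siRNA, where 4.75% of all genes were called higher. IRF9, a DNA-binding factor of the interferon response, went from 7.53 ± 0.24 to 10.59 ± 0.17 (SD, n = 4; log2 difference 3.06, limma adjusted p = 1.82e-12). IRF1, which binds interferon response elements of class I genes, rose by 1.20 (adjusted p = 0.00365), and NFKB1 by 0.50 (adjusted p = 0.0132, and 0.0514 without control array 3). Between the siRNAs IRF9 differed by -0.02 and IRF1 by -0.03 (adjusted p = 0.967 for each), while CREB1, a factor of the class I promoter complex, fell by 0.73 (adjusted p = 0.0089, and 0.228 without the dim arrays). Over untransfected cells RFXANK, a subunit of the RFX complex of MHC promoters, rose by 0.69 with EZH2 siRNA (adjusted p = 0.00232, and 0.0857 without the dim arrays), beside IRF9 and IRF1. NLRC5, the class I transactivator, was above background on 4 arrays and differed by 0.06, 0.01 and 0.07.

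Among the interferons, IFNB1, IFNA1 and IFNL1 were above background on 0 arrays and IFNG on 1. Of 8 tested receptor and signalling genes, IFNGR2 was called higher with control siRNA (adjusted p = 0.0468, lost when any single array but EZH2 siRNA array 1, 2 or 3 was left out), and 0 were called in the other comparisons. The share of all genes called higher with control siRNA was 4.75%.

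**Figure D4:**
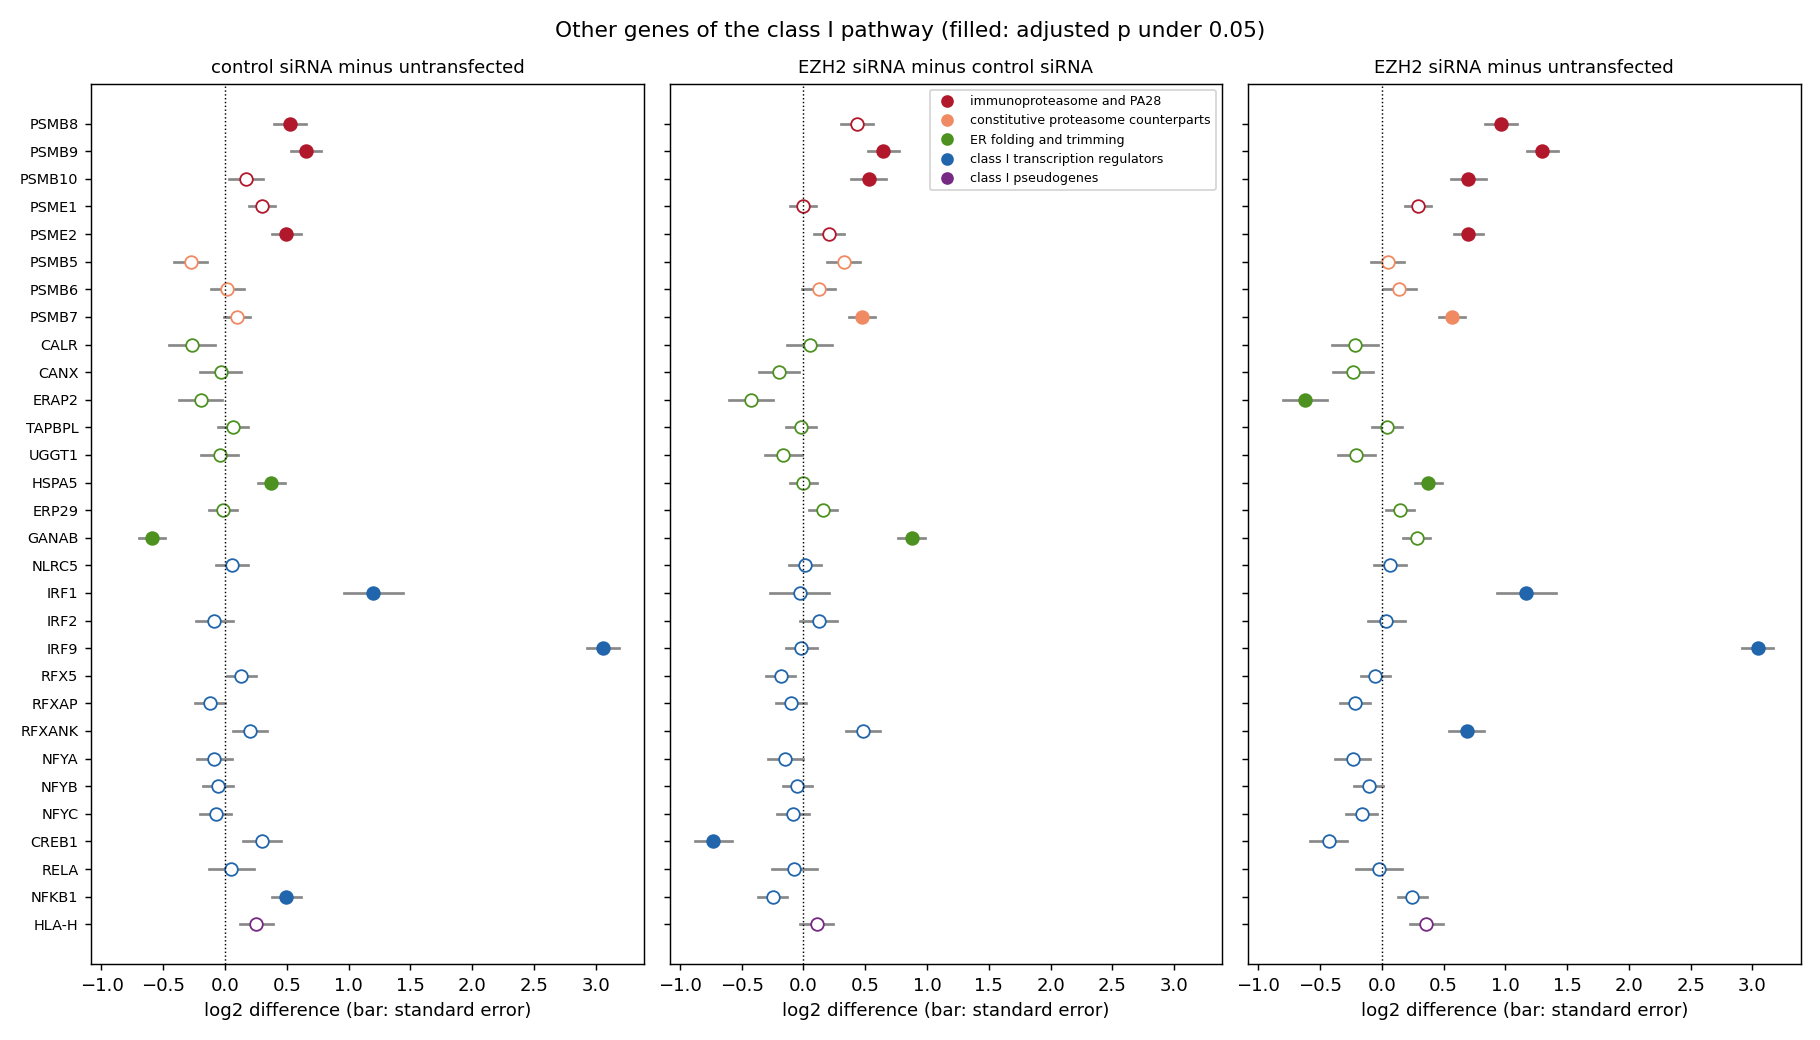
Log2 differences, with standard errors, of the proteasome, endoplasmic reticulum, regulator and pseudogene lists in the 3 comparisons; filled points have an adjusted p under 0.05. IRF9 lies near 3.06 and 3.04 against untransfected cells and near 0 between the siRNAs, whereas PSMB9 lies right of 0 in all 3.

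Within the endoplasmic reticulum, 8 of 10 folding and trimming genes were tested. GANAB, the catalytic subunit of glucosidase II that trims glycans before calnexin binding, fell by 0.59 with control siRNA (limma adjusted p = 0.00165) and rose by 0.88 with EZH2 siRNA over control siRNA (adjusted p = 7.61e-05). The chaperone gene HSPA5 rose by 0.38 with control siRNA (adjusted p = 0.0443, between 0.0718 and 0.117 without any single array of these 2 groups). ERAP2, an aminopeptidase that trims peptides for class I, fell by 0.62 with EZH2 siRNA against untransfected cells (adjusted p = 0.0209, and 0.355 without the dim arrays). That call was also lost without untransfected array 4 or EZH2 siRNA array 1 or 3 (adjusted p up to 0.0900), and as the mean over its probes the difference was -0.15 (adjusted p = 0.556). CALR and CANX, the lectin chaperones, were not called in any comparison.

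Among 7 tested genes of a list that joins regulators of class I after translation with immune ligands such as CD58, MARCHF4, a membrane ubiquitin ligase, fell by 0.71 with control siRNA (limma adjusted p = 0.000938) and by 0.91 with EZH2 siRNA against untransfected cells (adjusted p = 3.94e-05). SUSD6 rose by 0.47 in the latter (adjusted p = 0.0139, and 0.237 without the dim arrays). Of 5 tested class I-like genes, MICB, a ligand of the NKG2D receptor, rose by 0.43 with control siRNA (adjusted p = 0.0305, and up to 0.106 without untransfected array 1 or 2 or control array 1, 2 or 3) and 0 were called in the other comparisons. Across all genes 4.75% were called higher with control siRNA. Of 12 class II genes with a probe, 2 were tested, CD74 and HLA-DRB4, and neither was called; HLA-DRA was above background on 1 array. With the 75th percentile shift in place of quantile normalisation, the calls of IRF9 and PSMB9 over untransfected cells and that of MARCHF4 with EZH2 siRNA remained, and the other calls of the listed pathway genes outside the 9 members were lost, as were those of CD68, of ERBB2 and of PAX8 with EZH2 siRNA (adjusted p = 0.0648 to 0.579).

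Across the 12 arrays, the mean of the 8 member genes, each centred on its own mean, ran from -0.41 on untransfected array 2 to 0.23 on control array 1. The 5 other genes whose brightest probe followed this mean most closely were EFNB1 (Pearson r = 0.96 over 12 arrays), LAMB3 (0.95), EDEM1 (0.93), NFKB2 (0.93) and STING1 (0.93). These correlations are a description, since the arrays share 3 groups, brightness and normalisation. With control siRNA these genes differed from untransfected cells by 0.51, 0.76, 0.44, 0.53 and 0.76. The member mean was lower on every untransfected array than on every control array. Genes picked for following it were therefore bound to rise, and these differences are no separate result. Within the untransfected group array 3 lay above the group mean in 8 of the 8 genes, by 0.20 on average, and array 2 lay below it by 0.18.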

How the data were processed

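Per the labels, total RNA was amplified, labelled with biotin and hybridised to Illumina bead arrays, and raw intensities were exported with BeadStudio 3.2, per the submitters' processing notes. The deposited raw table holds 1 intensity for each of 48803 probes on each of 12 arrays, with no detection p-values. The deposited log2 table matched quantile-normalised log2 of the raw table to within 5e-05 and served as an alternative; 0 columns of sample values were unused. Export settings: not given in the sources used here.

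With limma 3.58.1 (R 4.3.3), raw intensities underwent normexp correction, offset 50, then quantile normalisation. The offset shrinks differences of dim probes. Tests were limited to probes that exceeded their array's background (p under 0.01) on 4 or more of 12 arrays, background being the most frequent signal with the spread below it mirrored above. This left 18177 probes and 30626 untested. The reference probe table named 28098 probes with 1 symbol and 13 with several, and listed none for 20692; symbols were updated through Entrez IDs; the brightest tested probe stood for a gene. A single linear model (lmFit, eBayes) held the 12 arrays as 3 groups, with Benjamini-Hochberg adjustment across every tested probe. An adjusted p under 0.05 was a call. Single genes also had exact two-sided permutation tests. The fit was also run on simulated data, which held no brightness differences between arrays, so that check does not cover them. The number of arrays limits precision: the median SE of a log2 difference was 0.13. Genes named beyond the members are up to 4 called genes per list and comparison, the 5 genes most like the members, and the defining or key genes of a list (NLRC5, the interferons, CALR, CANX, class II and leukocyte markers), the last chosen after their values were seen.

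Members, lists and tests were chosen with earlier results of these data known. Replicate numbers did not pair the arrays: correlations of same-numbered deviations ran from -0.37 to 0.46 over 12 pairs. Alternatives covered scaling, background correction, filters, array weights, brightness, the replicate number as a block, the probes of a gene, the threshold and leaving out each array. Promoters came from RefSeq (GRCh38.p14), and figures were drawn with matplotlib 3.10.9.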

Additional observations from a re-analysis of the deposited data

Results flagged for a closer look

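In 4 of 39 sets of 4 arrays (13 tested probes in 3 groups) 1 array stood apart from the other 3 by most of the group's range; chance does this in about 1 of 20 independent sets, and these sets share arrays and, for some, a gene. The second HLA-F probe (ILMN_1762861) read 7.28 on untransfected array 1, and 7.97 to 8.01 on the others. It read 8.19 on control siRNA array 4, and 8.36 to 8.37 on the others. The brighter B2M probe read 11.83 on untransfected array 2, and 12.31 to 12.41 on the others. The TAPBP probe annotated to NM_172208 (ILMN_1773031) read 7.29 on EZH2 siRNA array 1, a dim array, and 6.66 to 6.70 on the others.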

How the results depend on the processing

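The 2 genes called higher with control siRNA became 1 (TAP1 alone) with the 75th percentile shift, own background with an offset of 16, the mean over probes and an adjusted p under 0.01, and stayed between 1 and 2 when each array was left out. The 1 gene called lower with EZH2 siRNA against control siRNA became 0 under the same 4 settings, 2 with array brightness as a covariate, and 0 to 2 when each array was left out; without the dim arrays it was 1, TAPBP in place of TAP2. The 2 genes called higher with EZH2 siRNA over untransfected cells became 0 with the 75th percentile shift, 1 without the dim arrays or at 0.01, 5 with the mean over probes, and 2 to 4 when each array was left out. With the replicate number as a block 3 were called, HLA-G being added (adjusted p = 0.0445), and the other 2 comparisons kept 2 and 1.

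Some differences changed sign; the cause was not tested. Between the siRNAs the 75th percentile shift gave TAP1 -0.30, HLA-F -0.23 and on its second probe -0.00449, HLA-E -0.14, HLA-G -0.29, HLA-H -0.18 and the second B2M probe -0.22. Without the dim arrays HLA-F was -0.0436 and on its second probe -0.0492, HLA-G -0.0348 and HLA-H -0.10. Brightness as a covariate gave -0.00679 for the second B2M probe and -0.00928 for HLA-H, and the mean over probes gave TAP2 0.0369. The third TAPBP probe was -0.0154 with control siRNA under the 75th percentile shift. For EZH2 siRNA over untransfected cells TAP2 was 0.0154 with array weights, 0.0311 without the dim arrays and 0.39 as the mean over probes (adjusted p = 0.0363), which gave TAPBP 0.0241. Leaving out each array, that TAP2 difference ran from -0.0773 to 0.0458. Between the siRNAs TAP1 then ran from -0.0888 to 0.112, HLA-G from -0.0708 to 0.14, HLA-B from -0.193 to 0.0547 and the second B2M probe from -0.00946 to 0.17.

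Probes called among all tested ran from 310 to 1855, from 144 to 1219 and from 485 to 3397 over the settings that kept all arrays or dropped the dim ones, against 1120, 731 and 2921. The TAP2 probe gap and the pathway genes were examined under these settings after their values were seen. HLA-C, near background, could not be tested at this signal.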
